A study of Mus musculus with 15 samples.

Results

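Ppargc1a and Ppargc1b encode the transcriptional coactivators PGC-1α and PGC-1β, and their loci were examined for peaks of heat shock factor 1 (HSF1), which turns on chaperone genes under protein stress. The peaks came from ChIP-seq of mouse brown adipose tissue, in which fuel is burned to make heat. Every deposited peak that overlapped the RefSeq span of either gene in GRCm38, or the 50 kb on each side of it, was taken, and this gave 85 of the 54878 peaks on the standard chromosomes, of which 58 were at Ppargc1a and 27 at Ppargc1b. Peaks of different libraries that shared at least 1 bp were merged, which left 18 regions at Ppargc1a and 10 at Ppargc1b.

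There were 10 HSF1 ChIP libraries in 5 groups of 2. They were TXNIP KO mice after 40 min of cold, wild type (WT) mice after 40 min of cold in a later-numbered pair (replicates 1.1 and 2.1, called the second WT pair), and WT mice at room temperature, after 40 min of cold (the first WT pair) and after 4 h of cold. TXNIP is an arrestin that restrains glucose uptake; the labels do not describe the KO allele, and peak lists of HSF1 cannot check the deletion. Neither strain nor age is given, nor whether both 40 min WT pairs stem from the same tissue samples. Whether the paired libraries represent different animals is not stated, so a p-value here reflects library spread alone, which may be technical.

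The lists differed greatly in length. The KO lists held 10399 and 10633 peaks and those of the second WT pair 12644 and 14583, against 919 and 1269 in WT at room temperature, 2287 and 1670 in the first WT pair and 123 and 351 at 4 h. Read depth is unknown. Fold enrichment, the ratio of signal at a summit to the local background, is the authors' own value for each peak, and it describes a peak within its own list. Both 40 min WT pairs carry the same condition, yet their lists differ several-fold in length. At Ppargc1a the mean peak number of the groups had the same order as their mean list length. At Ppargc1b peaks were called in the 4 longest lists alone, and among those the KO had the higher mean number and the shorter lists. The part of list length in these differences was not tested beyond lists of equal length.

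PGC-1α is induced by cold through β-adrenergic and cAMP signalling in brown fat, where it drives mitochondrial biogenesis and the gene for uncoupling protein (Ucp1). PGC-1β is a related coactivator of mitochondrial and lipid genes. Both have no DNA-binding activity of their own and work through nuclear receptors and other transcription factors. HSF1 binds as a trimer to heat shock elements, which are inverted repeats of the unit GAA, and it has been reported to act on Ppargc1a in mouse tissues.

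The Ppargc1a promoter and that of Hspe1 are printed because each held peak summits while their heat shock element content differed. The RefSeq table gives Ppargc1a (gene ID 19017, chromosome 5, 51454249 to 52115853, minus strand) a start at position 51567725, so 113 kb of its 662 kb span lie between the start and the low end and 548 kb lie upstream of the start. This is the first promoter entry for the gene and the only one used. The annotated span reaches far past it, so other starts may exist, and their promoters were not searched. The promoter of this entry (chr5:51567676-51567975, minus strand, 250 bases before to 50 after the start) held a peak summit in 4 of 10 libraries. The promoter of Hspe1, the mitochondrial co-chaperonin gene (chr1:55087898-55088197, plus strand), held a summit in 10 of 10. Capitals mark the motif matches found: 1 cAMP response half-site (TGACG or its reverse complement CGTCA) in each promoter, and the heat shock elements of Hspe1. Both sequences are from RefSeq, GRCm38.p6.
Ppargc1a promoter: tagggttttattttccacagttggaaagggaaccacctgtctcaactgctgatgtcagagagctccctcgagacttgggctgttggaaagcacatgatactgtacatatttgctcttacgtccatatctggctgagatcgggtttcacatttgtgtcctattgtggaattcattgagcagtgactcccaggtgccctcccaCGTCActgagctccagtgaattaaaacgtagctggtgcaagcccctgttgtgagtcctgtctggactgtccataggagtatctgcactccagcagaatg
Hspe1 promoter: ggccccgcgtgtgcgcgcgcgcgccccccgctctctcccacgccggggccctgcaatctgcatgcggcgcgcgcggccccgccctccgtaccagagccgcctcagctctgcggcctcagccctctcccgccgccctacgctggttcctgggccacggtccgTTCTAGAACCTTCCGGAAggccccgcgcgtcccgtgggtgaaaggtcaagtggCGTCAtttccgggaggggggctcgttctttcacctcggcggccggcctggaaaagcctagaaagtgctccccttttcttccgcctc

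The printed Ppargc1a promoter held no heat shock element of 3 alternating units (GAANNTTC followed by NNGAA, both strands), and none of 2 units (GAANNTTC or TTCNNGAA, both strands, overlaps counted). Hspe1 held 2 matches of the longer motif and 3 of the shorter, and these overlap in a single stretch. Of all 32851 RefSeq promoters of this length, 0.603% held the longer motif and 15.1% the shorter. A summit of both libraries lay inside 2.05% of promoters in the KO, 3.13% in the second WT pair, 0.283% at room temperature, 0.417% in the first WT pair and 0.0639% at 4 h. Among these promoters the longer motif was found in 7.12% of 674 in the KO, 4.86% of 1028 in the second WT pair, 18.3% of 93 at room temperature, 21.2% of 137 in the first WT pair and 42.9% of 21 at 4 h. The cAMP response half-site was matched once in each of the printed promoters, in that of Ppargc1a with its first base 49 bases before the start. That short motif was in 20.8% of all promoters, and the full palindrome TGACGTCA, absent from the printed Ppargc1a promoter, was in 1.79%. A match describes the letters of the window and does not show binding.

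HSF1 peaks at Ppargc1a lay both around the RefSeq start and far upstream of it. Of the 18 regions, 9 were within 55 kb of the start and 9 more than 200 kb upstream. By place, 13 were in the part of the span upstream of the start, 4 were between the start and the low end, and 1 was at the start itself. Of these, 6 of the 13 and 2 of the 4 were called in 1 library each. The 13 upstream regions are 72.2% of all, and the upstream part is 82.8% of the span. None lay in the flanks, which hold part of Dhx15, a splicing helicase gene, and the noncoding genes Gm40302 and Mir6417.

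**Figure D1:**
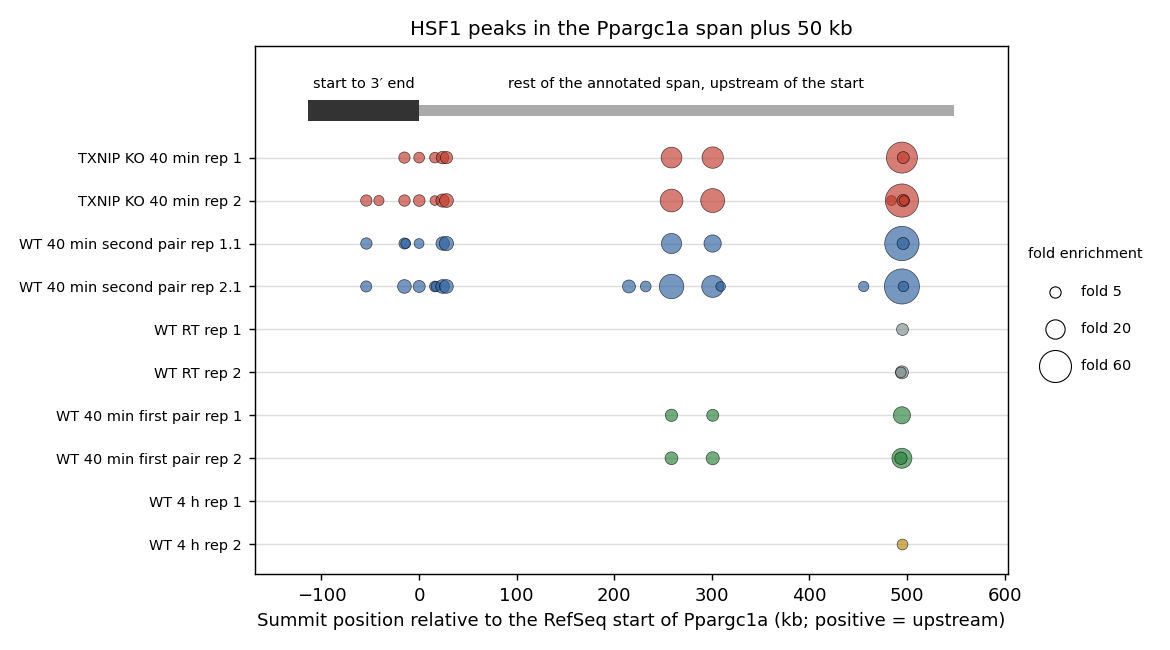
Summits of HSF1 peaks in the Ppargc1a window (x axis, kb from the RefSeq start, positive upstream) in each of the 10 libraries (rows), with circle area growing with fold enrichment. The region 495 kb upstream is present in 9 libraries, the regions 259 and 301 kb upstream in 6, and the region at the start in the 4 libraries of the KO and the second WT pair.

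The leading region, 495 kb upstream of the start and 53.3 kb inside the far end of the span, was called in 9 of 10 libraries. Its fold was 56.2 and 64.99 in the KO, 69.7 and 72.9 in the second WT pair, 5.96 and 7.61 in WT at room temperature, and 15.2 and 21.7 in the first WT pair. At 4 h it was not called in replicate 1 and had a fold of 4.30 in replicate 2. The KO values were below those of the second WT pair, and the room temperature values below those of the first WT pair, without overlap. Folds describe a peak within its own list, however. By rank among regions of all 4 libraries, the KO and the second pair overlapped (300 and 210 against 271 and 268). The first WT pair ranked better than room temperature (368 and 151 against 584 and 489). The leading region was the peak of highest fold in the window in each of these 9 libraries. Its summits fell between positions 52062551 and 52062606, within 55 bp of each other.

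The place of this peak in its list ran from near the top to near the bottom. It ranked 300 and 210 in the KO, 271 and 268 in the second WT pair, 615 and 525 in WT at room temperature, 385 and 152 in the first WT pair, and 343 of 351 in 4 h replicate 2. It was thus within the strongest 2.88% of each KO list and 2.14% of each second pair list, and the 4 h peak was among the weakest of its list (−log10 q of 2.71). Ranks in lists of unequal length show no change by themselves. The called interval was also wider in the long lists, at 2187 and 2243 bp in the KO and 2058 and 2276 bp in the second WT pair. It was 430 and 604 bp in WT at room temperature, 743 and 1033 bp in the first WT pair and 369 bp at 4 h. A separate small peak about 1 kb closer to the start was called in room temperature replicate 2 (fold 4.05) and first pair replicate 2 (fold 6.68), inside the interval that the long lists called as a single peak.

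A pair of regions 259 and 301 kb upstream were called in 6 libraries, all of them at 40 min of cold. Their median summits were 51826478 and 51868669, 42.2 kb apart, and the upper one lay 194 kb from the leading region. The region at 259 kb had folds of 23.7 and 28.8 in the KO, 22.2 and 33.9 in the second WT pair and 6.50 and 7.24 in the first pair. The region at 301 kb had folds of 25.3 and 32.4 in the KO, 15.5 and 26.8 in the second WT pair and 6.06 and 7.71 in the first pair. At both, the KO values overlapped those of the second pair, and the first pair was below both. Summits agreed within 107 bp at the first and 101 bp at the other.

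**Figure D2:**
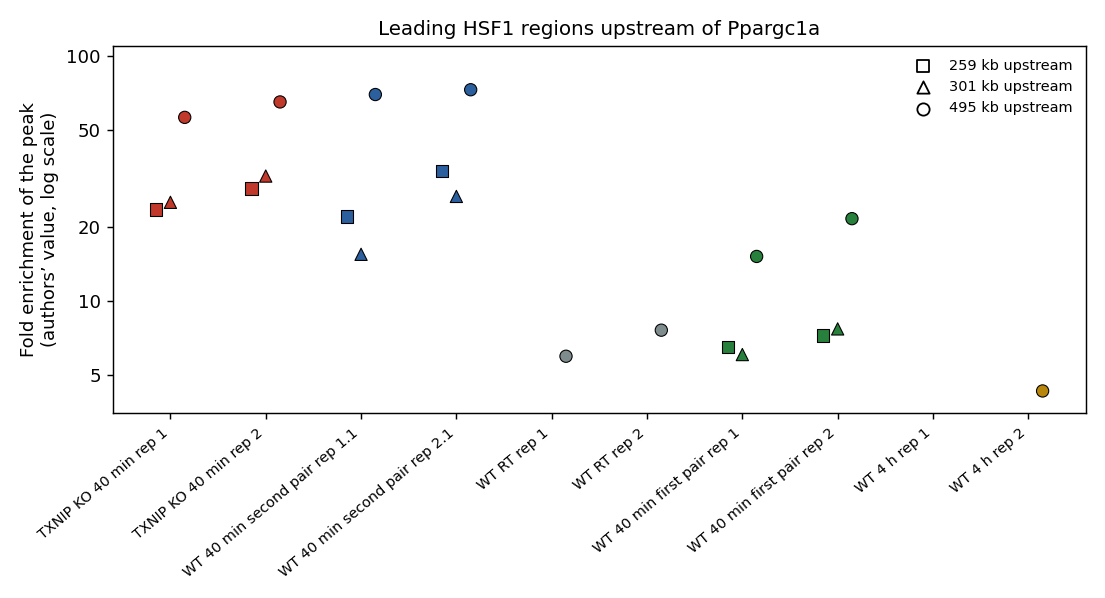
Fold enrichment (y axis, log scale, the authors' values) of the 3 leading Ppargc1a regions in each library, with marker shape for the region and colour for the group; a missing marker means no peak was called. The region 495 kb upstream is the highest in every library that calls it, and the other 2 have markers at 40 min of cold alone.

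The order of these 2 regions within a list differed between the KO and the second WT pair. The fold at 301 kb divided by that at 259 kb was 1.07 and 1.12 in the KO and 0.7004 and 0.7885 in the second WT pair. The ratio in the first WT pair, 0.931 and 1.06, lay between them. The difference between the KO and the second pair was 0.56 on the log2 scale (mean 0.13 ± 0.05 in the KO and -0.43 ± 0.12 in the second pair, SD, n = 2 each). A 2-sided exact permutation test of 2 libraries against 2 gave p = 0.33, the smallest it can give, and 0.67 after adjustment over the 2 ratios tested. The ratio of the leading region to that at 259 kb overlapped between the groups, at 2.38 and 2.25 in the KO and 3.14 and 2.15 in the second pair. The ratio of the leading region to that at 301 kb was not tested. It was 2.22 and 2.01 in the KO and 4.49 and 2.72 in the second pair, without overlap. In the first WT pair it was 2.51 and 2.82. Both tested ratios were chosen after their values were seen.

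At the RefSeq start of Ppargc1a there was a weak peak. Its summit lay 134 and 237 bp upstream of the start in the KO and 47 and 173 bp upstream in the second WT pair, with folds of 4.36 and 5.53 in the KO and 3.19 and 6.17 in the second pair. No peak was called there at room temperature, in the first WT pair or at 4 h. A summit of both libraries within 1 kb was found at 7.9% of RefSeq starts in the KO and 11.1% in the second pair, against 0.983% at room temperature, 1.44% in the first WT pair and 0.201% at 4 h. The peak ranked 7815 and 5445 in the KO and 12102 and 5736 in the second pair, and in second pair replicate 1.1 that place was 95.7% of the way down the list.

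Further regions surrounded the start in the long lists. Those 24.1 and 28.1 kb upstream were called in all 4 libraries, with folds of 6.43 to 8.89 in the KO and 8.36 to 9.76 in the second WT pair. A region 14.9 kb downstream of the start was called in the same 4 libraries. Its folds were 5.04 and 5.27 in the KO and 4.78 and 8.75 in the second pair. One 496 kb upstream, beside the leading region, had folds of 6.02 and 6.72 in the KO and 6.37 and 3.94 in the second pair. The region 16.3 kb upstream was called in 3 libraries, both of the KO (folds 4.19 and 2.89) and second pair replicate 2.1 (4.29). That 54.0 kb downstream of the start was called in KO replicate 2 (5.14) and both of the second pair (5.18 and 4.802). The other 8 regions had a peak in 1 library each, with folds of 2.92 to 7.52.

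HSF1 peaks at Ppargc1b (gene ID 170826, chromosome 18, 61291445 to 61400756) were found in 4 libraries, those of the KO and the second WT pair. No peak was called in the other 6, among them both libraries of the first WT pair. The KO held 6 and 8 peaks and the second pair 6 and 7. The strand of this gene was not used, so positions are given from the higher end of its span.

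The leading Ppargc1b region lay 1.67 kb inside that end, in the part of the span that also holds Mir378a, the gene of a microRNA known to act in brown fat and mitochondrial metabolism. Its folds were 18.0 and 16.4 in the KO and 15.9 and 19.96 in the second WT pair, and its 4 summits fell within 29 bp. The median summit was 1.19 kb from Mir378a and 69 bp outside the lower end of Gm52354, a noncoding gene. The next region, 27.0 kb inside the end, had folds of 15.1 and 13.9 in the KO and 13.5 and 13.7 in the second pair, and its summits fell within 43 bp. Another, 60.6 kb inside the end, was weaker, at 4.36 and 4.54 in the KO and 4.98 and 6.69 in the second pair. The groups overlapped at the leading region, the KO was higher by a small margin at 27.0 kb and lower at 60.6 kb. The strongest Ppargc1b peak of a library had a lower fold than the leading Ppargc1a peak in all 4 libraries.

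Weaker Ppargc1b peaks were less regular between libraries. Regions 51.5 and 41.2 kb inside the end were called in KO replicate 2 and second pair replicate 2.1, and a peak 147 bp inside the end in KO replicate 2 alone (fold 3.75). In the flank beyond the end, 4 regions 23.6 to 47.7 kb out had folds of 2.92 to 4.78, and no peak lay in the flank that holds Pde6a, a photoreceptor phosphodiesterase gene, and the pseudogene Rps2-ps10. The pseudogene Gm8755 lies in the flank with peaks, and the noncoding gene Gm46627 inside the Ppargc1b span. The flank region farthest out was the one nearest to the edge of the window, with folds of 3.32 and 4.15 in the KO and 2.99 and 4.33 in the second pair, whose 2 peaks there did not overlap each other. The nearest peaks beyond that edge were 22.5 and 22.3 kb farther out in the KO (folds 3.11 and 3.36) and 36.5 and 39.7 kb in the second pair (3.35 and 8.72). At Ppargc1a the nearest peaks beyond the window were 144 kb out in both KO libraries and 24.3 kb out in both second pair libraries, with folds of 6.22 and 4.94 in the KO and 3.98 and 4.12 in the second pair.

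**Figure D3:**
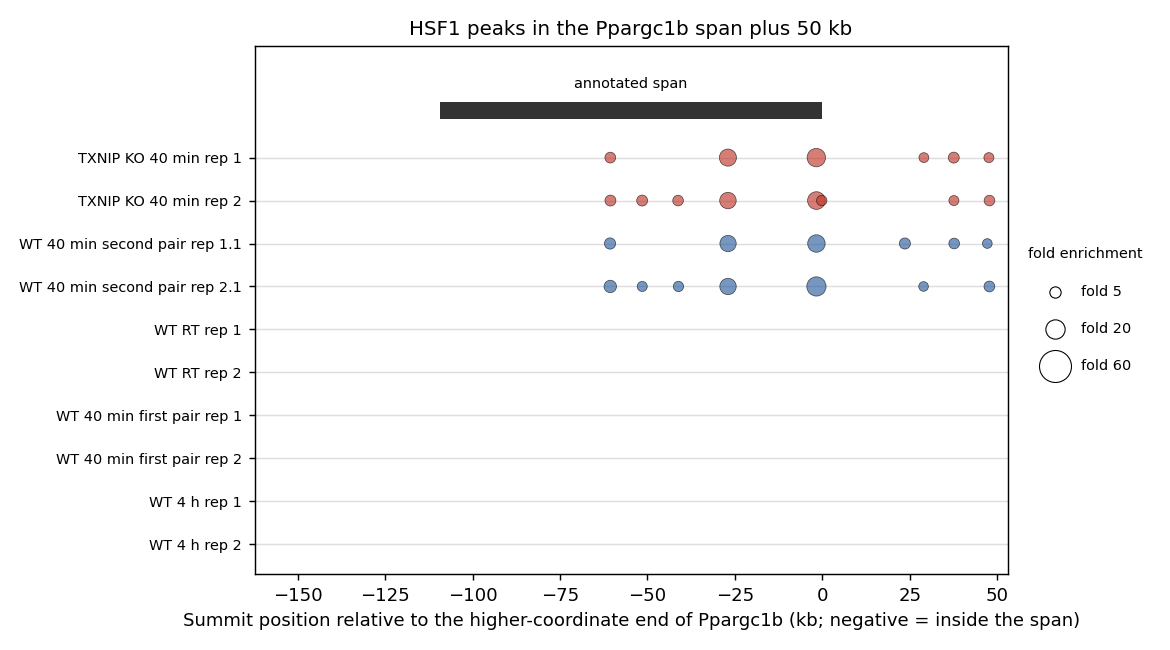
Summits of HSF1 peaks in the Ppargc1b window (x axis, kb from the higher end of the annotated span, negative inside it) in each of the 10 libraries (rows), with circle area growing with fold enrichment. Peaks appear in the 4 libraries of the KO and the second WT pair, and the largest circles, 1.67 and 27.0 kb inside the end, have folds of 13.5 to 19.96.

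The number of regions called by both libraries of a group was 9 at Ppargc1a and 5 at Ppargc1b in the KO, 9 and 3 in the second WT pair, 1 and 0 in WT at room temperature, 3 and 0 in the first WT pair, and 0 and 0 at 4 h. Of 21883 protein-coding genes, 41.1% in the KO, 48% in the second pair, 7.69% at room temperature, 13% in the first WT pair and 1.28% at 4 h had at least 1 such region in a window built the same way. As many regions as at Ppargc1a were found at 0.347% of genes in the KO, 0.635% in the second pair and 0.443% in the first WT pair. As many as at Ppargc1b were found at 2.78% in the KO and 14.4% in the second pair. The Ppargc1a window is long, however, at 762 kb against 209 kb for Ppargc1b. Per 100 kb of window, Ppargc1a had 1.18 regions in the KO (matched or passed by 18.2% of genes), 1.18 in the second pair (23.7%) and 0.394 in the first WT pair (12.3%). Ppargc1b had 2.39 in the KO (7.04%) and 1.43 in the second pair (21.7%).

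The first question the time course poses is what 40 min of cold added. Peaks per library at Ppargc1a numbered 3 and 4 in the first WT pair, against 1 and 2 at room temperature (mean 3.5 ± 0.71 and 1.5 ± 0.71, SD, n = 2 each). The 2 regions at 259 and 301 kb were gained, meaning present in both libraries at 40 min and absent from both at room temperature, as were 15.8% of the 2582 regions of these 4 libraries. None was lost, against 0.194% of all regions. Neither was gained when all 4 lists were held to their strongest 919 peaks, the length of the shortest. The leading region was called in all 4 libraries and stood higher among the 756 regions shared by them at 40 min, with ranks of 368 and 151 against 584 and 489 in WT at room temperature, and 24.1% of the shared regions ranked better, and 25.7% worse, in both 40 min libraries. Ppargc1b had no peak in these libraries.

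After 4 h, Ppargc1a held 0 and 1 peaks, against 3 and 4 in the first WT pair and 1 and 2 at room temperature. The regions at 259 and 301 kb were lost between 40 min and 4 h, as were 46.4% of 2476 regions, and none was gained (0.0404% of all). Against room temperature no Ppargc1a region was called as lost or gained, since 4 h replicate 2 still called the leading region, while 36.6% of 1427 regions were lost and 0.21% gained. The 4 h lists were the shortest. Lists of equal length, 123 peaks each, could count no loss, since the best Ppargc1a rank in these libraries was 152. That cut therefore does not bear on the loss.

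Between the genotypes, 8 Ppargc1a regions and 4 Ppargc1b regions held peaks of all 4 libraries after merging, and none at either locus was gained or lost in the KO against the second WT pair. The Ppargc1b region 47.7 kb beyond the end is counted here because KO peaks join the second pair peaks, which do not overlap each other. Merged within the second pair alone it is not shared, hence the 3 Ppargc1b regions given above for that pair. Of all 18147 regions in these libraries 1.1% were gained and 7.36% lost. Peaks per library at Ppargc1a numbered 9 and 13 in the KO and 10 and 15 in the second pair (mean 11 ± 2.8 and 12.5 ± 3.5, SD, n = 2 each). The Ppargc1a difference of -1.5 became 0.5 without KO replicate 1 and 1 without second pair replicate 2.1, and 5 regions counted as lost without second pair replicate 1.1. Peaks per library at Ppargc1b were 6 and 8 in the KO and 6 and 7 in the second pair (mean 7 ± 1.4 and 6.5 ± 0.71, SD, n = 2 each). The Ppargc1b difference of 0.5 became 4 with 100 kb flanks and 2.5 with lists of equal length (exact permutation p = 0.33 for both), -0.5 with peaks of −log10 q of 10 or more or without KO replicate 2, 1.5 without KO replicate 1 and 0 without second pair replicate 1.1.

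Place among the 7131 regions shared by these 4 libraries was counted over the same regions in each library. The leading Ppargc1a region ranked 300 and 210 in the KO and 271 and 268 in the second pair, and the groups overlapped. The region at 301 kb ranked better in both KO libraries, at 978 and 675 against 1873 and 1124 in the second pair, as did 22.2% of all shared regions. At Ppargc1b the region 27.0 kb inside the end ranked 1741 and 1796 in the KO and 2183 and 2348 in the second pair, and the leading region overlapped between the groups. Of the 12 regions, 2 ranked better in both KO libraries, 1 ranked worse in both (60.6 kb inside the end of Ppargc1b; 19.5% of all shared regions did) and 9 overlapped.

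**Figure D4:**
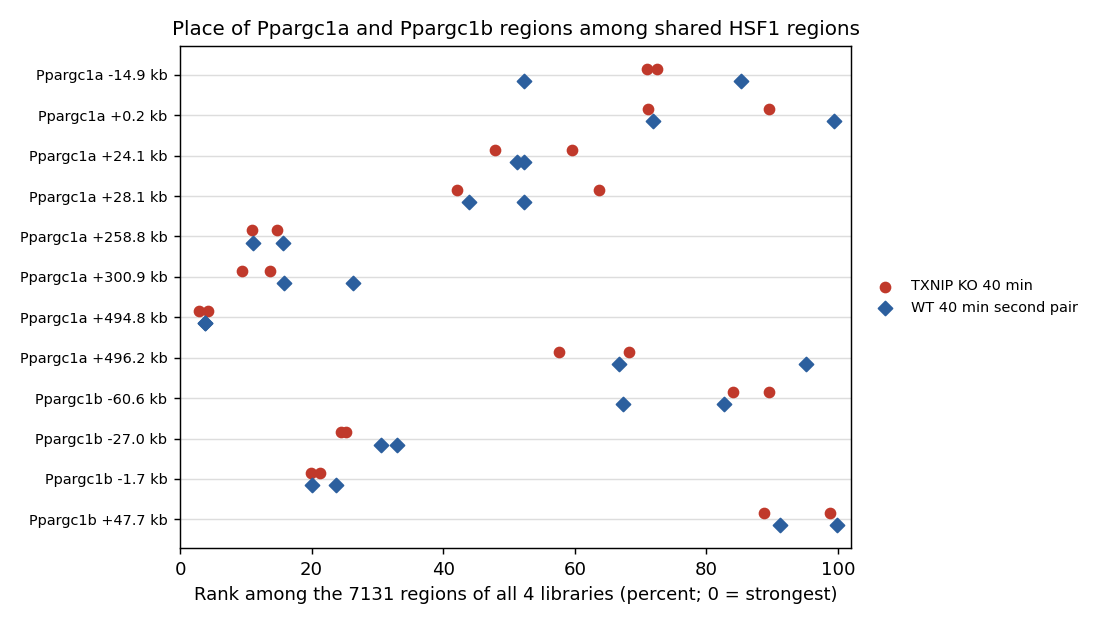
Rank of the 8 Ppargc1a and 4 Ppargc1b regions with peaks of all 4 libraries (rows, kb from the RefSeq start for Ppargc1a and from the higher end for Ppargc1b) among the 7131 shared regions, in percent from strongest to weakest (x axis), with red circles for the KO and blue diamonds for the second WT pair. Most rows overlap between the groups; the Ppargc1a region at 301 kb stands at 13.7% and 9.47% in the KO and 26.3% and 15.8% in the second pair.

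In full lists, the 2 WT pairs at 40 min of cold differed most in peak number among the 5 comparisons, at both loci. In lists of equal length the difference turned direction at Ppargc1a and was smaller at Ppargc1b. Peaks per library were 10 and 15 in the second pair, against 3 and 4 in the first, at Ppargc1a, and 6 and 7 in the second pair, against 0 and 0 in the first, at Ppargc1b. At Ppargc1a 6 regions were gained and at Ppargc1b 3, as were 48% of the 16645 regions, and none was lost (0.00601% of all). With lists of equal length the difference in mean peak number, 9 at Ppargc1a and 6.5 at Ppargc1b, became -1 at Ppargc1a and 0.5 at Ppargc1b, and no Ppargc1a region was gained. Among the 1461 shared regions, the leading Ppargc1a region ranked 271 and 268 in the second pair, against 383 and 151 in the first. The ranks of this region and of those at 259 and 301 kb overlapped between the pairs, while 18.4% of shared regions ranked better and 20% worse in both libraries of the second pair.

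Peak number was compared between groups by 2-sided exact permutation tests, 5 comparisons at each of 2 loci, which share libraries with each other. None passed, and with 2 libraries against 2 none could. The smallest possible p, 0.33, was reached at Ppargc1a for the second against the first WT pair, for 40 min against room temperature and for 4 h against 40 min, and at Ppargc1b for the second against the first WT pair (0.83 after adjustment over 10 tests). The permutation p was 0.67 at Ppargc1a for the KO against the second pair and for 4 h against room temperature, and 1 elsewhere.

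Genes that act with the coactivators were listed by role and described by the same window. The remaining family member, Pprc1, a related coactivator, had 3 regions of both libraries in the KO and 4 in the second WT pair, and none in the other groups. Of 16 partner transcription factors, 16 had such a region in the KO, 16 in the second pair, 3 at room temperature, 5 in the first WT pair and 0 at 4 h. At room temperature these were Pparg, the adipocyte nuclear receptor, Nrf1, a factor for nuclear-encoded mitochondrial genes, and Yy1, a zinc finger factor that PGC-1α coactivates at mitochondrial genes. Of 19 regulators of the coactivators 13 had one in the KO, 15 in the second pair, 1 at room temperature, 2 in the first WT pair and 0 at 4 h, with Prdm16, the coregulator of brown fat identity, the one at room temperature. Of 18 target genes, 13 had one in the KO, 14 in the second pair, 3 at room temperature, 4 in the first WT pair and 1 at 4 h. Vegfa, the angiogenic factor, was the target with a region in all 5 groups. Of all genes, 41.1% had one in the KO and 48% in the second pair. The share was 7.69% at room temperature, 13% in the first WT pair and 1.28% at 4 h. At room temperature the regulators (5.26%) were below this share, and the partners (18.75%) and targets (16.7%) above it. In the first WT pair too the regulators (10.5%) were below it, and the partners (31.25%) and targets (22.2%) above. These shares are over windows that vary with gene length and over active and silent genes alike.

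A region of both libraries was counted as near a gene end when the summit of either library lay within 1 kb of it. In the KO, 5 of the 16 partners, 4 of the 19 regulators and 6 of the 18 targets had such a region. So did 9.95% of all genes. In the second pair 5 partners, 6 regulators and 6 targets did, against 14% of all genes, and in the other groups none of the 3 lists had one (1.19% of all genes at room temperature, 1.73% in the first WT pair and 0.27% at 4 h). The best placed were Acadm, an enzyme of fatty acid oxidation, with folds of 20.7 and 21.3 in the KO and 18.1 and 18.5 in the second pair. Mef2d, a MADS-box factor, had 12.2 and 14.3 in the KO and 10.95 and 15.4 in the second pair, and Vegfa had 10.0 and 16.0 in the KO and 8.36 and 17.8 in the second pair. All 3 had higher folds there than the peak at the Ppargc1a start.

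The regions whose folds ran most like those of the leading Ppargc1a region were sought among the 176 others called in the same 9 libraries. The measure was the root mean square difference of log2 fold, whose median over these regions was 0.65. The closest lay in Gm40011 (0.26), 436 bp from Fbxo42 (0.30), 5310 bp from Snx24 (0.31), in Gse1 (0.32) and 300 bp from Chka (0.32), an enzyme of phosphatidylcholine synthesis. At the region in Gm40011 the folds were 55.4 and 59.5 in the KO, 62.5 and 65.9 in the second pair, 7.98 and 9.08 in WT at room temperature, 17.2 and 19.5 in the first WT pair and 6.07 in 4 h replicate 2. The compared regions share their libraries, and the measure takes in level as well as pattern.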

How the data were processed

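HSF1 was mapped by ChIP-seq in 10 libraries; 5 inputs have no file analysed here, and 1 of these, whose title and treatment label disagree, was placed in no group. Fixation used DSG (2 mM, 25 min) followed by formaldehyde (0.8%, 12 min), per the labels' protocols. Tools named in the submitters' processing notes are MACS2 2.2.7.1, deepTools 3.4.3, BWA 0.7.17, Trim Galore 0.6.0 and SAMtools, with GRCm38.p6. Filters, and which input stood behind which library, were details not given in the sources used here. Peak files as the authors deposited them hold narrow peaks of single libraries, with a fold enrichment (a linear ratio), −log10 p and −log10 q for each peak, and the deposited offset of the summit. Read counts were not used here, so depth is unknown.

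Positions are 1-based. Chromosomes 1 to 19, X and Y were kept, repeated lines for an identical interval were taken as 1 peak, and peaks were ranked by −log10 p within a list. Genes and promoter sequences are from RefSeq tables of GRCm38.p6; the promoter table has no entry used here for Ppargc1b. Region merging was tested on simulated peaks. A region was gained when both libraries of the first-named group and neither of the other called it, and lost in the opposite case. Peak numbers were compared by exact permutation tests with Benjamini-Hochberg adjustment. Python 3.11.15, NumPy 2.4.6, pandas 2.3.3 and Matplotlib 3.10.9 were used. No genome was used, so motifs were searched in promoters and not at the other regions. Named genes are the 2 loci, neighbours in the windows, the family, the 3 best placed listed genes per group, Hspe1 as a promoter with heat shock elements, and the 5 regions most like the leading one; other genes of the lists were named after their values were seen. The windows and lists were chosen with earlier results of these data known.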

Additional observations from a re-analysis of the deposited data

How the results depend on the processing

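Of 253 recomputed values for 30 results, 8 turned direction and 29 moved to or from 0 or, for counts, by over 1.5 times. The other 216 say little about stability: 110 set 0 against 0, and no test of 2 libraries against 2 could pass the threshold. The difference in peaks per library at Ppargc1a between the KO and the second WT pair, -1.5, turned to 0.5 with peaks of −log10 q of 10 or more, to 1 with lists of equal length and to 7.5 against the first WT pair, with values of -4 to 1 over the fits that left out 1 library. It was 0.5 without KO replicate 1, -3.5 without KO replicate 2, -4 without second pair replicate 1.1 and 1 without second pair replicate 2.1. At Ppargc1b the difference of 0.5 became 4 with 100 kb flanks and 2.5 with lists of equal length, turned to -0.5 with the stricter peaks, and ranged from -0.5 to 1.5 over the fits that left out 1 library (-0.5 without KO replicate 2, 0 without second pair replicate 1.1). For the second against the first WT pair at Ppargc1a, the difference of 9 turned to -1 with lists of equal length. With lists of equal length, the differences of 4 h from room temperature and from 40 min at Ppargc1a became 0 and 0. These values were fixed by the cut to 123 peaks, as the best Ppargc1a rank in those libraries was 152.

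Regions of both libraries at Ppargc1a fell to 5 in the second pair and 0 at room temperature with the stricter peaks. With 1 library standing for its group they ranged from 10 to 15 in the second pair, 1 to 2 at room temperature and 0 to 1 at 4 h. At Ppargc1b the 5 regions of the KO became 3 with no flank, 8 with 100 kb and 2 with stricter peaks, and ranged from 6 to 8 with 1 library, against 6 to 7 in the second pair. Regions gained in the KO were 6 against the first WT pair and 0 to 2 with 1 library left out; 1 was lost with 100 kb of flank and 0 to 5 with 1 library left out (5 without second pair replicate 1.1). Regions gained in the second over the first pair were 2 with stricter peaks, 0 in lists of equal length, 3 with summits within 150 bp, and ranged from 6 to 12 with 1 library left out. The 2 regions gained at 40 min became 0 in lists of equal length. The 2 lost at 4 h also became 0, but the cut to 123 peaks fixed this, since it leaves no Ppargc1a peak. Against room temperature 0 to 1 was lost at 4 h with 1 library left out. The cause of these changes was not tested, beyond the shorter lists that some alternatives build in. A paired comparison with the replicate number as a block (1.1 taken as 1 and 2.1 as 2, chosen after seeing the data) leaves each difference as it was, such as -1.5 peaks at Ppargc1a for the KO against the second pair, and its exact sign-flip p cannot go below 0.5, which 6 of 10 reached. The labels do not say that a number marks a shared animal or day. Over the 7131 regions shared by the KO and the second pair, rank differences between the replicates correlated at r = 0.18 across regions, which are not independent, and in the other comparisons at -0.07 to 0.25. The 2-unit heat shock element was searched in the promoter, and the narrower window around summits was not run.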

Other observations

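Values of some listed genes, all chosen after they were seen, stand beside those of Ppargc1a. Prdm16, the coregulator of brown fat identity, had 11 regions of both libraries in its window in the KO, 11 in the second WT pair, 2 at room temperature, 2 in the first WT pair and none at 4 h, and the Ppargc1a window had 9 in the KO, 9 in the second WT pair, 1 at room temperature, 3 in the first WT pair and none at 4 h. Vegfa had 6 in the KO, 7 in the second pair and 1 in each other group. Ucp1, the uncoupling protein gene, had 5 in the KO and 5 in the second pair and none in the other groups. Dio2, the thyroid hormone deiodinase gene, had none in any. At least 1 such region was found at 41.1% of all protein-coding genes in the KO and 48% in the second pair. The share was 7.69% at room temperature, 13% in the first WT pair and 1.28% at 4 h. Windows grow with gene length, and no number per 100 kb is given for these listed genes.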
